A study of Mus musculus with 9 samples.

Results

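The TGF-beta and activin genes analysed here are the 10 genes Tgfb1, Tgfb2, Tgfb3, Inhba, Inhbb, Tgfbr1, Tgfbr2, Smad7, Tgfbi and Ltbp2, which were chosen by their symbols out of 48587 genes in the table of read counts. They were measured by RNAseq in 9 samples, each a pool of 6 retinas of C57BL/6J mice at an age of 12 weeks. In eyes with retinal vein occlusion (RVO, n = 3 pools), all large veins were occluded with a laser (50 mW, spot size 50 µm, 2.5 s) after an injection of 200 mg/kg eosin Y as a photosensitizer. Control eyes (n = 3 pools) were the fellow eyes of these mice, had received the same photosensitizer and were treated with the same laser scheme between the large vessels, and retinas of both groups were taken at d2. Untreated eyes (n = 3 pools) were not laser-treated. RVO and control eyes thus share the laser lesion and the photosensitizer, and n counts pools and not mice. The pools were made of whole retinas, and genes of rod photoreceptors were high in each of them, with 44760 to 87680 CPM summed over 8 rod markers.

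TGF-beta ligands are secreted in a latent form that is held in the extracellular matrix by latent TGF-beta binding proteins. Once released, they bind the type II receptor Tgfbr2, which activates the type I receptor Tgfbr1, and the receptor complex phosphorylates SMAD transcription factors. Activins, dimers of the subunits encoded by Inhba and Inhbb, signal through their own receptors to the same SMADs. Smad7 is a target gene of the pathway and inhibits it by feedback, and Tgfbi encodes a matrix protein named for its induction by TGF-beta. In the retina, Tgfb2 is known as the main TGF-beta isoform of neurons and glia, and TGF-beta is known to be required for the mature state of microglia.

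The counts of a sample summed to between 12377572 and 15245869 in untreated, 18897218 and 23419497 in control and 21022997 and 28993921 in RVO eyes, so that genes of low expression were measured with least precision in untreated eyes. Levels are in CPM, a gene's count relative to the total of its sample, scaled with edgeR's TMM factors, and differences between groups are given as fold or as log2 ratio with its standard error (SE). Each pair of groups was compared with edgeR's quasi-likelihood test, and a gene was called higher or lower at a Benjamini-Hochberg adjusted p under 0.01 over all genes tested. All 10 genes passed the filter for low counts in each comparison. Between RVO and untreated eyes, 6 of the 10 genes were higher and 1 was lower, where 27.4% of all tested genes were called higher and 24.6% lower. Control eyes had 3 of the genes higher and 1 lower than untreated eyes, with 27.2% and 25.2% of all genes. Between RVO and control eyes, 3 were higher and 0 lower, with 2.70% and 0.634% of all genes. At unadjusted p under 0.05 in the last comparison, 1 gene (Tgfb3) was lower, and DESeq2 called 0 lower. At an adjusted p under 0.05, 2 genes were lower in RVO than in untreated eyes (32.5% of all genes) and 5 were higher in control than in untreated eyes (33.0%). The groups did not overlap for 8 genes between RVO and untreated eyes (73.4% of all genes) and for 5 between control and untreated eyes (70.0%). The median log2 ratio of the 10 genes was 1.35, 0.38 and 0.66 in these comparisons, and that of all tested genes was 0.01, 0.01 and 0.02. The first 2 comparisons share the untreated samples. Scaling by library size without TMM factors moved the median of all genes up by 0.21 on the log2 scale in RVO and by 0.17 in control against untreated eyes.

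**Figure D1:**
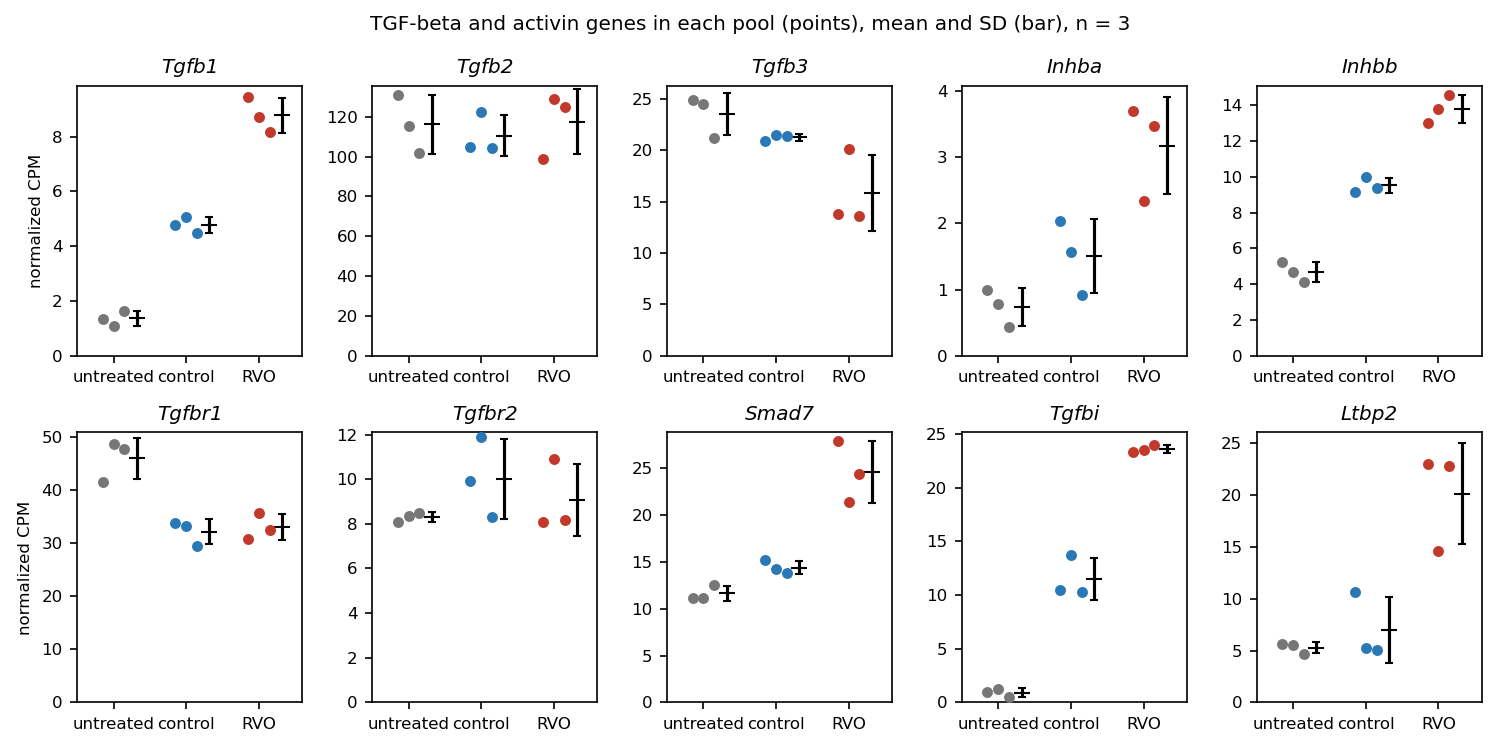
Normalized CPM of the 10 TGF-beta and activin genes (y axes from 0) in the untreated, control and RVO pools (x axes). Points are pools and bars give the mean and SD of 3 pools. Tgfbi and Tgfb1 form 3 separate levels, whereas the groups of Tgfb2 and Tgfbr2 overlap.

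Among the TGF-beta ligands, Tgfb1 rose in both laser-treated groups, Tgfb2 was expressed at the highest level and did not pass the test in any comparison, and Tgfb3 was lowest in RVO eyes. Tgfb1, the isoform that is abundant in platelets and immune cells, had 1.36, 1.09 and 1.64 CPM in untreated replicates 1 to 3, 4.79, 5.05 and 4.48 CPM in control eyes and 9.43, 8.71 and 8.18 CPM in RVO eyes. Its 3 groups did not overlap, and the untreated values rest on 14 to 23 counts per sample. It rose 6.52-fold in RVO against untreated eyes (log2 ratio 2.70, SE 0.20, edgeR, Benjamini-Hochberg adjusted p = 2.33e-05). After control laser treatment it was 3.50-fold higher than in untreated eyes (log2 ratio 1.81, SE 0.20, edgeR, Benjamini-Hochberg adjusted p = 6.73e-06). RVO exceeded control eyes by 1.84-fold (log2 ratio 0.88, SE 0.13, edgeR, Benjamini-Hochberg adjusted p = 0.00943).

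Tgfb2 had 131, 115 and 102 CPM in untreated, 105, 122 and 104 CPM in control and 99.0, 129 and 125 CPM in RVO eyes. The pools of each group spread over the same range. Its log2 ratio was 0.05 (SE 0.13) between RVO and untreated eyes, -0.05 (SE 0.09) between control and untreated eyes and 0.09 (SE 0.12) between RVO and control eyes, with adjusted p-values of 0.748, 0.631 and 0.566 (edgeR, Benjamini-Hochberg). The sign of the first turned without RVO replicate 2 (-0.0048) and without untreated replicate 3 (-0.05).

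Tgfb3, the isoform known for its part in closure of the palate (chromosome 12, 86056745 to 86079041), had 24.9, 24.5 and 21.2 CPM in untreated, 20.9, 21.5 and 21.3 CPM in control and 13.8, 20.1 and 13.6 CPM in RVO eyes. RVO replicates 1 and 3 were well below all other pools, and RVO replicate 2 was just below the control eyes. The log2 ratio was -0.54 between RVO and untreated eyes (SE 0.17, edgeR, Benjamini-Hochberg adjusted p = 0.0188) and -0.42 between RVO and control eyes (SE 0.15, edgeR, Benjamini-Hochberg adjusted p = 0.0669), so neither passed the threshold of 0.01. Without RVO replicate 2, both did, with -0.73 (edgeR, Benjamini-Hochberg adjusted p = 4e-05) and -0.65 (edgeR, Benjamini-Hochberg adjusted p = 0.000206), and over all 14 alternatives these p-values ran up to 0.092 and 0.205. For control against untreated eyes the value was -0.13 (SE 0.09, edgeR, Benjamini-Hochberg adjusted p = 0.213).

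Levels of different genes can be compared only per length, and counts of the 3 ligands were therefore divided by the length of their exons. Of the summed level, Tgfb2 made up 74.8%, 72.7% and 72.7% in untreated, 71.8%, 74.2% and 71.5% in control and 74.2%, 74.4% and 79.3% in RVO eyes. The share of Tgfb1 was 1.01% ± 0.30 in untreated (SD, n = 3), 3.604% ± 0.15 in control and 6.62% ± 1.3 in RVO eyes, and that of Tgfb3 was 25.6% ± 1.1, 23.9% ± 1.4 and 17.5% ± 2.6. The groups did not overlap for Tgfb1 in any comparison, and RVO eyes were below both other groups for Tgfb3. These differences had the smallest p that 3 against 3 samples allow (two-sided exact permutation test, p = 0.1, and 0.18 after Benjamini-Hochberg adjustment over 9 tests), so the design could not reach 0.05. The shares depend on the length taken for Tgfb1, since its exons sum to 5042 bases but its longest transcript has 2573. With the longest transcripts, the difference between RVO and untreated eyes went from 5.61 to 9.34 percentage points for Tgfb1 and turned from 2.5 to -1.24 for Tgfb2.

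**Figure D2:**
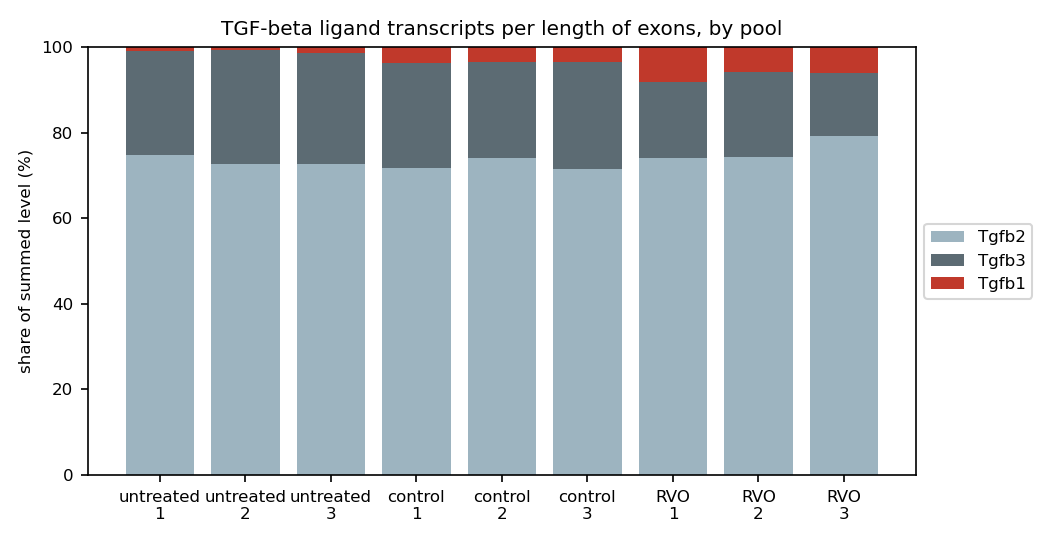
Share of Tgfb2, Tgfb3 and Tgfb1 (% of their summed level per length of exons, y axis) in each of the 9 pools (x axis). The share of Tgfb1 is 0.792% to 1.35% in untreated, 3.52% to 3.77% in control and 5.77% to 8.11% in RVO pools, and Tgfb2 makes up most of the level in every pool.

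Both activin subunit genes rose after RVO. Inhba, which encodes the subunit of activin A, had 0.999, 0.781 and 0.429 CPM in untreated, 2.04, 1.57 and 0.921 CPM in control and 3.70, 2.34 and 3.47 CPM in RVO eyes. Each RVO pool was above each control pool, whereas control replicate 3 lay within the untreated range, and only 6 to 11 counts per untreated sample and 22 to 45 per control sample stood behind these values. It rose 4.48-fold in RVO against untreated eyes (log2 ratio 2.16, SE 0.34, edgeR, Benjamini-Hochberg adjusted p = 0.000755). The log2 ratio was 1.07 between control and untreated eyes (SE 0.39, edgeR, Benjamini-Hochberg adjusted p = 0.0268) and 1.08 between RVO and control eyes (SE 0.32, edgeR, Benjamini-Hochberg adjusted p = 0.0347), and neither was called.

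Inhbb, the subunit gene of activin B, had 5.27, 4.69 and 4.14 CPM in untreated, 9.18, 10 and 9.37 CPM in control and 13.0, 13.8 and 14.6 CPM in RVO eyes. The 3 groups were separate and varied little within themselves. It rose 3.01-fold in RVO (log2 ratio 1.59, SE 0.14, edgeR, Benjamini-Hochberg adjusted p = 5.33e-05) and 2.06-fold in control eyes (log2 ratio 1.04, SE 0.13, edgeR, Benjamini-Hochberg adjusted p = 1.84e-05) against untreated eyes. Between RVO and control eyes its log2 ratio of 0.54 missed the threshold (SE 0.10, edgeR, Benjamini-Hochberg adjusted p = 0.013). Per kilobase of exons, Inhbb had 1.10 ± 0.13 CPM in untreated and 3.24 ± 0.18 CPM in RVO eyes, and Inhba 0.115 ± 0.045 and 0.496 ± 0.11 CPM, so that Inhbb was the more abundant subunit in each group.

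The stretches of 250 bases before the start site were taken from RefSeq (GRCm38.p6) for the 4 ligand genes with an entry, to show the start regions of the 3 ligand genes that rose in RVO eyes beside that of Tgfb2. All 4 lie outside the annotated transcripts and are printed 5′ to 3′ on the strand of the gene. The capitals mark matches of 5 searched motifs, which were TGANTCA (AP-1), GTCTAGAC (the SMAD palindrome), AGCCAGACA (the CAGA box of SMAD3 and SMAD4), ACGTG (a form of the core of the hypoxia responsive element) and TTCNNNGAA (STAT factors), on both strands. The form GCGTG of this core was not searched and is not marked, and its reverse complement CACGC stands unmarked in the stretches of Tgfb1 and Inhba.
Tgfb1, chr7:25686752-25687001, plus strand: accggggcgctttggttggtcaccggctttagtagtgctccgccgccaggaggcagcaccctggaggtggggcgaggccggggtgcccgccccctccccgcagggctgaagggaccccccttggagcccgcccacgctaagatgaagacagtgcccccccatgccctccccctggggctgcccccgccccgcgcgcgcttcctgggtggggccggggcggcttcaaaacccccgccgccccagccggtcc
Tgfb2, chr1:186705990-186706239, minus strand: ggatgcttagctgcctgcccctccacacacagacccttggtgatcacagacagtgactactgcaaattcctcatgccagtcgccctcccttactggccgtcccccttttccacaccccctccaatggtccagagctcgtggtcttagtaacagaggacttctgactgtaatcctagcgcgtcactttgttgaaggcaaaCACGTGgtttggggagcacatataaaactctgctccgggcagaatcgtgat
Inhba, chr13:16011601-16011850, plus strand: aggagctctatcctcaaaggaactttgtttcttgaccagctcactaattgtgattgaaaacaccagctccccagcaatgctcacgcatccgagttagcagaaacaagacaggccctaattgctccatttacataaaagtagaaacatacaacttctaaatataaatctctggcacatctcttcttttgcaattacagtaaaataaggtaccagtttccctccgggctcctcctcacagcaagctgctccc
Inhbb, chr1:119422249-119422498, minus strand: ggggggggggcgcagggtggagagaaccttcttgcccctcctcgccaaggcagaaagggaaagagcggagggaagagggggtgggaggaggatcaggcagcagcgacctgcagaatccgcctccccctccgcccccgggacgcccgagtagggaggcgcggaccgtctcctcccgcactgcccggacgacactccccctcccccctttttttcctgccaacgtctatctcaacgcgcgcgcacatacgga
The stretch of Tgfb1 was 75.2% G and C, that of Inhbb 68%, that of Tgfb2 53.6% and that of Inhba 43.2%. Tgfb2 alone held a match, the core ACGTG on both strands in 2 overlapping copies (CACGTG) between 51 and 46 bases before the start, and this core was found in 16.6% of all 32851 promoters in the table. AP-1 was found in 6.75%, STAT in 7.02%, the CAGA box in 0.301% and the SMAD palindrome in 0.167% of them. The 8 members with an entry held no other match in this window, whereas Tgfb3 and Smad7 had no entry. A match, or none, describes these letters only.

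Of the receptor genes, Tgfbr1 fell in both laser-treated groups and Tgfbr2 passed the test in no comparison. Tgfbr1, the type I receptor of TGF-beta (chromosome 4 of GRCm38, 47353222 to 47414931), had 41.5, 48.5 and 47.7 CPM in untreated, 33.7, 33.2 and 29.5 CPM in control and 30.8, 35.6 and 32.5 CPM in RVO eyes. All laser-treated pools were below all untreated pools, and RVO and control pools covered the same range. It fell by 0.45 on the log2 scale in RVO (SE 0.09, edgeR, Benjamini-Hochberg adjusted p = 0.00324) and by 0.50 in control eyes (SE 0.08, edgeR, Benjamini-Hochberg adjusted p = 0.00017), and between RVO and control eyes the log2 ratio was 0.04 (SE 0.09, edgeR, Benjamini-Hochberg adjusted p = 0.758). The fall in RVO eyes lost its call when RVO replicate 1 (edgeR, Benjamini-Hochberg adjusted p = 0.0119), RVO replicate 3 (0.0176), untreated replicate 2 (0.0188) or untreated replicate 3 (0.0153) was left out and when TMM factors were not used (0.0601), and over 14 alternatives its log2 ratio was -0.52 to -0.24 and the lowest of these p-values was 0.000186. The sum of 8 microglia markers was also lower in both laser-treated groups, with 119 to 180 CPM in untreated, 71.2 to 85.9 CPM in control and 42.2 to 79.5 CPM in RVO eyes. In each laser-treated group 5 of 8 were lower than in untreated eyes, and none was at 0. Between RVO and control eyes the median log2 ratio of these markers was -1.21. Of the 8, 0 were called at an adjusted p under 0.01 and 5 were lower at an adjusted p under 0.05 (edgeR, Benjamini-Hochberg), with 17.1% of all genes. The 8 rod markers summed to 85910 to 87680 CPM in untreated, 54950 to 67030 CPM in control and 44760 to 48700 CPM in RVO eyes. Against untreated eyes, 6 of 8 rod markers were lower in control and 8 of 8 in RVO eyes. Among all tested genes, 25.2% were lower in control and 24.6% in RVO than in untreated eyes. In pools of whole retina, fewer cells of a type and less RNA per cell cannot be told apart, and the part of these cells in the fall of Tgfbr1 was not tested.

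Tgfbr2, the type II receptor (chromosome 9, 116084293 to 116175360), had 8.08, 8.36 and 8.50 CPM in untreated, 9.90, 11.9 and 8.29 CPM in control and 8.06, 10.9 and 8.18 CPM in RVO eyes. In each laser-treated group 1 or 2 pools were higher than the narrow untreated range and the others within or near it. No comparison passed the test, with log2 ratios of 0.15 in RVO (SE 0.16) and 0.28 in control (SE 0.14) against untreated eyes and -0.14 (SE 0.18) between RVO and control eyes (edgeR, Benjamini-Hochberg adjusted p = 0.422, 0.0981 and 0.564).

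Smad7, the inhibitory SMAD, had 11.2, 11.2 and 12.6 CPM in untreated, 15.2, 14.3 and 13.8 CPM in control and 28.0, 21.5 and 24.4 CPM in RVO eyes. RVO pools were separate from all others, and control pools lay just above the untreated ones. It rose 2.16-fold in RVO against untreated eyes (log2 ratio 1.11, SE 0.13, edgeR, Benjamini-Hochberg adjusted p = 0.000175) and 1.71-fold higher than in control eyes (log2 ratio 0.78, SE 0.12, edgeR, Benjamini-Hochberg adjusted p = 0.00944). The log2 ratio of 0.32 between control and untreated eyes was not called (SE 0.10, edgeR, Benjamini-Hochberg adjusted p = 0.0122), and reached the threshold when TMM factors were not used (log2 ratio 0.50, edgeR, Benjamini-Hochberg adjusted p = 0.000984), with p-values of up to 0.0592 over 14 alternatives.

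Of the matrix genes, Tgfbi had the largest fold change of the 10 genes against untreated eyes. It lies on chromosome 13 (56609523 to 56639562) and had 0.999, 1.25 and 0.5 CPM in untreated, 10.5, 13.7 and 10.3 CPM in control and 23.3, 23.5 and 24.0 CPM in RVO eyes. The RVO pools were nearly equal and at a level of their own above the control pools, and the untreated values rest on 7 to 16 counts per sample. Tgfbi rose 26.5-fold in RVO against untreated eyes (log2 ratio 4.73, SE 0.23, edgeR, Benjamini-Hochberg adjusted p = 4.18e-06), 12.8-fold higher after control laser treatment (log2 ratio 3.68, SE 0.24, adjusted p = 1.69e-07) and 2.06-fold above control in RVO eyes (log2 ratio 1.04, SE 0.13, adjusted p = 0.00731, each from edgeR after Benjamini-Hochberg adjustment). Between untreated and RVO eyes it moved from the 9th to the 2nd place of the 10 genes per kilobase of exons.

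Ltbp2, a protein of microfibrils such as those of the ciliary zonule that does not bind latent TGF-beta itself (chromosome 12, 84783212 to 84876532), had 5.63, 5.55 and 4.71 CPM in untreated, 10.7, 5.26 and 5.11 CPM in control and 23.0, 14.6 and 22.9 CPM in RVO eyes. All RVO pools were above the others, and of the control pools replicate 1 alone was above the untreated range. It rose 3.90-fold in RVO against untreated eyes (log2 ratio 1.96, SE 0.21, edgeR, Benjamini-Hochberg adjusted p = 0.000113). For control against untreated eyes the log2 ratio was 0.43 (SE 0.26, edgeR, Benjamini-Hochberg adjusted p = 0.164), and it was -0.0031 without control replicate 1 (adjusted p = 0.989, with 0.00955 to 0.989 over 14 alternatives). Between RVO and control eyes it was 1.53 and not called (SE 0.32, edgeR, Benjamini-Hochberg adjusted p = 0.0145). RNA of the lens, summed over 8 markers, was 251, 74.6 and 22.1 CPM in control replicates 1 to 3 and 20.6, 818 and 91.5 CPM in RVO replicates 1 to 3. Its part in the values of Ltbp2 was not tested.

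**Figure D3:**
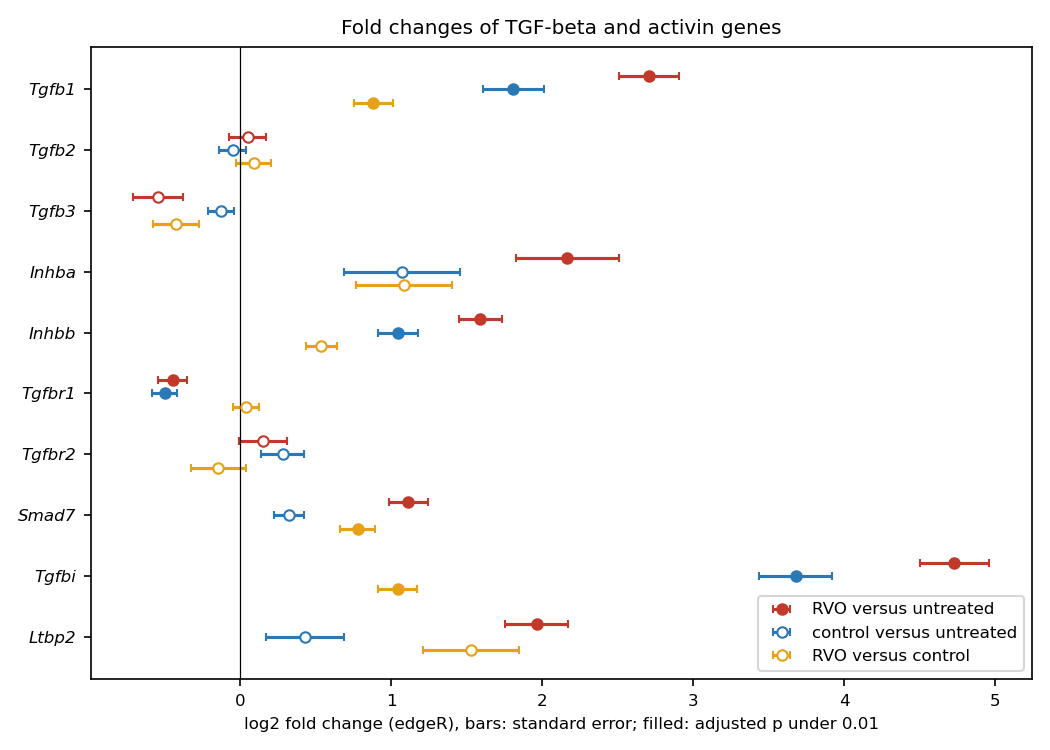
Log2 fold change (x axis) of the 10 genes (y axis) in the 3 comparisons, with the standard error as bar and filled points for an adjusted p under 0.01. Values of RVO against untreated eyes run from -0.54 for Tgfb3 to 4.73 for Tgfbi, and 3 genes are filled between RVO and control eyes.

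The comparison of RVO and control eyes asks what vein occlusion adds to the laser lesion, and its calls of Tgfb1, Tgfbi and Smad7 were close to the threshold. Groups did not overlap for 7 of the 10 genes, where 52.5% of all genes did not overlap. At an adjusted p under 0.05, Inhba, Inhbb and Ltbp2 joined them and 6 of 10 genes were higher, with 17.5% of all genes (edgeR, Benjamini-Hochberg). When RVO replicate 1 or 3 or any of the control replicates was left out, 0 of the 10 genes were called in edgeR, with adjusted p-values (Benjamini-Hochberg) from 0.0155 to 0.0566 for Tgfb1, Tgfbi and Smad7. In these fits few genes of the whole table were called either, 29 of 17149 without RVO replicate 1, 1 of 17247 without control replicate 1 and 0 without RVO replicate 3, control replicate 2 or control replicate 3, where 6100, 6916 and 6311 genes had an unadjusted p under 0.05. Without RVO replicate 2, 6 of the 10 genes were higher and 1 was lower, beside 2942 higher and 3315 lower of all 17199 genes. With DESeq2, 5 were higher and 0 lower, beside 1860 higher and 2177 lower of all 16874 genes. With DESeq2's size factors or upper quartile factors in edgeR, Tgfbi alone of the 10 genes was called, and Tgfb1 and Smad7 had adjusted p-values (Benjamini-Hochberg) of 0.01 to 0.0103. Log2 fold changes varied less than these calls, with 0.81 to 0.93 for Tgfb1, 0.96 to 1.19 for Tgfbi and 0.66 to 0.85 for Smad7 over 14 alternatives. RVO replicate 2 was the RVO pool nearest to the control mean for 5 of the 10 genes, and replicates 1 and 3 were so for 3 and 2 genes.

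Ordered by CPM per kilobase of exons, the 10 genes ran from Tgfb2 (20.1 ± 2.5 in untreated eyes, SD, n = 3) over Tgfbr1 (7.03 ± 0.59), Tgfb3 (6.96 ± 0.60), Smad7 (2.57 ± 0.18), Inhbb (1.10 ± 0.13), Tgfbr2 (1.02 ± 0.03), Ltbp2 (0.647 ± 0.062), Tgfb1 (0.271 ± 0.054) and Tgfbi (0.243 ± 0.10) to Inhba (0.115 ± 0.045). Tgfbr1 and Tgfb3, Inhbb and Tgfbr2, Tgfb1 and Tgfbi, and Tgfbi and Inhba were neighbours whose ranges overlapped. In RVO eyes the order was Tgfb2 (20.3 ± 2.8), Tgfbi (6.26 ± 0.09), Smad7 (5.44 ± 0.72), Tgfbr1 (5.04 ± 0.38), Tgfb3 (4.68 ± 1.1), Inhbb (3.24 ± 0.18), Ltbp2 (2.46 ± 0.59), Tgfb1 (1.74 ± 0.12), Tgfbr2 (1.11 ± 0.20) and Inhba (0.496 ± 0.11). Here Tgfbi, Smad7, Tgfbr1 and Tgfb3 each overlapped with the next, as did Ltbp2 and Tgfb1. Control eyes had Tgfb2 (19.1 ± 1.8) first and Inhba (0.236 ± 0.088) last, too.

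For each of the 10 genes, the genes with the most similar course over the 9 pools were sought among 14974 genes, by the root mean square difference of log2(CPM + 0.5) after removal of each gene's mean. The pools fall into 3 groups, so this is a description of group levels. Closest to Tgfb1 were Cyba, a subunit of the phagocyte NADPH oxidase (0.114, with 3.02, 9.57 and 17.0 CPM in untreated, control and RVO eyes), and Plxnd1 (0.13). Closest to Inhbb were Blvrb, a biliverdin reductase (0.0738), and Gas2l1 (0.092), and closest to Smad7 were Gcc1 (0.0607) and Elmsan1 (0.0612). Tgfbr1 was closest to Nr2f2 (0.0457) and Etaa1 (0.0583), Tgfb3 to Ptpre (0.065) and Sort1 (0.0676), Tgfb2 to Mthfsl (0.0501) and Ugp2 (0.0664), and Tgfbr2 to Wipi1 (0.083) and Gap43 (0.103). Tgfbi, Inhba and Ltbp2 had no gene as close, with 0.237 for Scube1 and 0.255 for Fgf2os, 0.193 for Mtap and 0.195 for Gcnt2, and 0.22 for Sh3tc2 and 0.232 for Cdk6. The closest pair among the 10 genes themselves was Tgfb2 and Tgfbr2, at 0.2.

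The other genes of the pathway were followed in 7 lists of together 102 genes. Of the 89 that could be tested in RVO against untreated eyes, 47 rose (27.4% of all genes) and 12 fell (24.6%). Of 86 in control against untreated eyes, 39 rose (27.2%) and 15 fell (25.2%). Of 91 in RVO against control eyes, 13 were higher (2.70%) and 0 lower (0.634%), and 44 higher and 8 lower at an adjusted p under 0.05 (17.5% and 17.1% of all genes). DESeq2 called 37 higher and 4 lower there, beside 1860 and 2177 of all 16874 genes. At an unadjusted p under 0.05 in edgeR 50 were higher and 12 lower, beside 7940 of all 16874 genes in either direction. Without RVO replicate 3 or any of the control replicates, edgeR called 0 pathway genes between RVO and control eyes, and at most 1 gene of the whole table. For the lists below, shares of all genes called at an adjusted p under 0.01 are given for the comparisons with untreated eyes. Between RVO and control eyes they are 2.70% higher and 0.634% lower for every list.

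Of 12 genes of the latent complex and its activation, 8 of 11 tested were higher in RVO (27.4% of all genes) and 8 in control than in untreated eyes (27.2%). Lower were 1 and 2 (24.6% and 25.2%), and 2 were higher in RVO eyes than in control eyes (2.70%). The latter were Ltbp1, a binding protein that anchors latent TGF-beta in the matrix, with 9.38 ± 1.71 CPM in untreated, 15.5 ± 2.28 in control and 35.8 ± 1.74 in RVO eyes (SD, n = 3), and Thbs1, an extracellular activator of TGF-beta, with 22.3 ± 0.94, 41.6 ± 9.29 and 106 ± 12.3 CPM. RVO exceeded control eyes 2.32-fold for Ltbp1 (edgeR, Benjamini-Hochberg adjusted p = 0.00589) and 2.57-fold for Thbs1 (edgeR, Benjamini-Hochberg adjusted p = 0.00794). Lrrc32, which holds latent TGF-beta on the cell surface, rose 8.11-fold in RVO and 5.17-fold in control eyes from 0.592 ± 0.30 CPM in untreated eyes, and Emilin1, a matrix protein that restrains the maturation of TGF-beta, rose 7.17-fold and 4.64-fold. Itgb8, the integrin subunit that activates latent TGF-beta, named after its values were seen, was the gene that was lower in both, with 84.3 ± 3.1 CPM in untreated, 48.5 ± 3.31 in control and 33.9 ± 13.8 in RVO eyes.

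Of 13 other receptor genes, 11 were tested, and 5 were higher and 4 lower in RVO as well as in control against untreated eyes. The shares of all genes were 27.4% higher and 24.6% lower in RVO and 27.2% and 25.2% in control eyes. The activin receptor Acvr2b rose 3.50-fold in RVO and 2.54-fold in control eyes from 7.44 ± 1.26 CPM in untreated eyes, whereas its paralog Acvr2a, named after its values were seen, was lower in both, with 65.4 ± 3.12 CPM in untreated, 36.8 ± 2.4 in control and 31.9 ± 1.81 in RVO eyes. Bmpr2 fell by 1.01 on the log2 scale in RVO and by 0.86 in control eyes. Eng, a coreceptor of endothelial cells, rose 2.70-fold in control eyes, and its ratio of 1.85 in RVO eyes was not called (edgeR, Benjamini-Hochberg adjusted p = 0.0172). Amhr2 rose 2.20-fold in RVO and 2.44-fold in control eyes from 0.503 CPM in untreated eyes. For RVO against control eyes, edgeR called 0 of the 11, DESeq2 called 1, and 5 had an unadjusted p under 0.05, of which 3 were higher. Endothelial markers, 8 genes, summed to 155 to 162 CPM in untreated, 298 to 333 in control and 139 to 253 in RVO eyes with none at 0, and their part in Eng was not tested.

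Of 10 other ligand genes, 3 were tested against untreated eyes, with 0 higher (27.4% of all genes) and 1 lower (24.6%) in RVO and 2 higher (27.2%) and 0 lower (25.2%) in control eyes. Inha, the inhibin subunit that pairs with the activin subunits, rose 1.64-fold in control eyes, with 7.93 ± 0.62 CPM in untreated, 12.8 ± 1.36 in control and 7.27 ± 0.99 in RVO eyes, and Gdf11 rose 1.35-fold in control eyes, with 19.1 ± 0.84, 25.5 ± 2.47 and 19.2 ± 4.03 CPM. Mstn, which encodes myostatin, fell in RVO eyes, with 0.295 in RVO and 1.202 CPM in untreated eyes. Of 8 antagonists outside the cell, 5 of 7 tested were higher in RVO (27.4% of all genes) and 3 of 6 in control than in untreated eyes (27.2%), and 0 were lower (24.6% and 25.2%). Fstl3, which binds and blocks activins, had 1.27 ± 0.33 CPM in untreated, 3.02 ± 0.37 in control and 6.29 ± 0.51 in RVO eyes, and was 2.08-fold above control in RVO eyes (edgeR, Benjamini-Hochberg adjusted p = 0.00928). This call was lost with upper quartile factors, when 311 genes of the whole table were called higher. It was also lost without RVO replicate 1 or 3 or any of the control replicates, when at most 29 genes of the table were called. Bgn, a matrix proteoglycan that binds TGF-beta, rose 3.14-fold and 2.18-fold, Vasn rose 2.19-fold in RVO and 1.68-fold in control eyes and Cd109 6.02-fold in RVO eyes. Cd109 had 1 to 7 counts per untreated sample and did not pass the filter for low counts in control against untreated eyes. The activin antagonist Fst, also named after its values were seen, had 1 to 5 counts per untreated sample and was not tested against them.

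Among 20 SMADs and regulators, 5 were higher and 3 lower in RVO and 5 higher and 6 lower in control against untreated eyes, with list medians of 0.14 and -0.14 on the log2 scale. These counts were near the shares of all tested genes, with 27.4% higher and 24.6% lower in RVO and 27.2% and 25.2% in control eyes. The corepressor Tgif1 rose 10.6-fold in RVO and 3.28-fold in control eyes from 2.35 ± 0.30 CPM in untreated eyes, with 24.1 ± 8.29 CPM in RVO eyes. Smad5, which transmits BMP signals, rose 2.6-fold and 1.68-fold, and Smad9 fell by 1.46 on the log2 scale in RVO and by 0.49 in control eyes. Smad6, an inhibitory SMAD, rose 1.69-fold in control eyes, and its log2 ratio of 1.00 in RVO eyes was not called (edgeR, Benjamini-Hochberg adjusted p = 0.0147). Pmepa1, a feedback inhibitor induced by TGF-beta, was the gene called between RVO and control eyes, with 69.4 ± 3.41 CPM in untreated, 63.4 ± 4.36 in control and 104 ± 11.6 in RVO eyes (1.64-fold, edgeR, Benjamini-Hochberg adjusted p = 0.0088).

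Of 22 target genes of TGF-beta, 20 of 21 tested were higher in RVO (27.4% of all genes) and 13 of 19 in control than in untreated eyes (27.2%), and 0 were lower (24.6% and 25.2%). In RVO against control eyes, 8 of 21 were higher (2.70%). The list medians were 2.29, 1.25 and 1.29. Lox and Snai1, named after their values were seen, had 0.321 and 0.156 CPM in untreated eyes and were not tested there against control eyes. They passed the filter for low counts through the RVO pools and, like Timp1, could only be called higher, so the first 2 counts do not cover the same genes. Junb, a subunit of AP-1, was 3.46-fold and Cdkn1a, an inhibitor of the cell cycle, 4.54-fold above control in RVO eyes. Timp1, an inhibitor of matrix metalloproteinases, had 0 to 3 counts per untreated sample. Set against 3 counts per untreated library, its level was at least 185-fold higher in RVO eyes and in control eyes at least 103-fold higher. Cdkn1a, Junb and Timp1 are among the genes that the study listed from these samples for their rise in RVO, so they are not independent evidence of direction. These genes also respond to other stimuli, among them cytokines and hypoxia. Postn, named after its values were seen, was the target that was tested and not called, with 3.86 ± 1.01 CPM in untreated and 1.98 ± 1.3 CPM in RVO eyes.

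**Figure D4:**
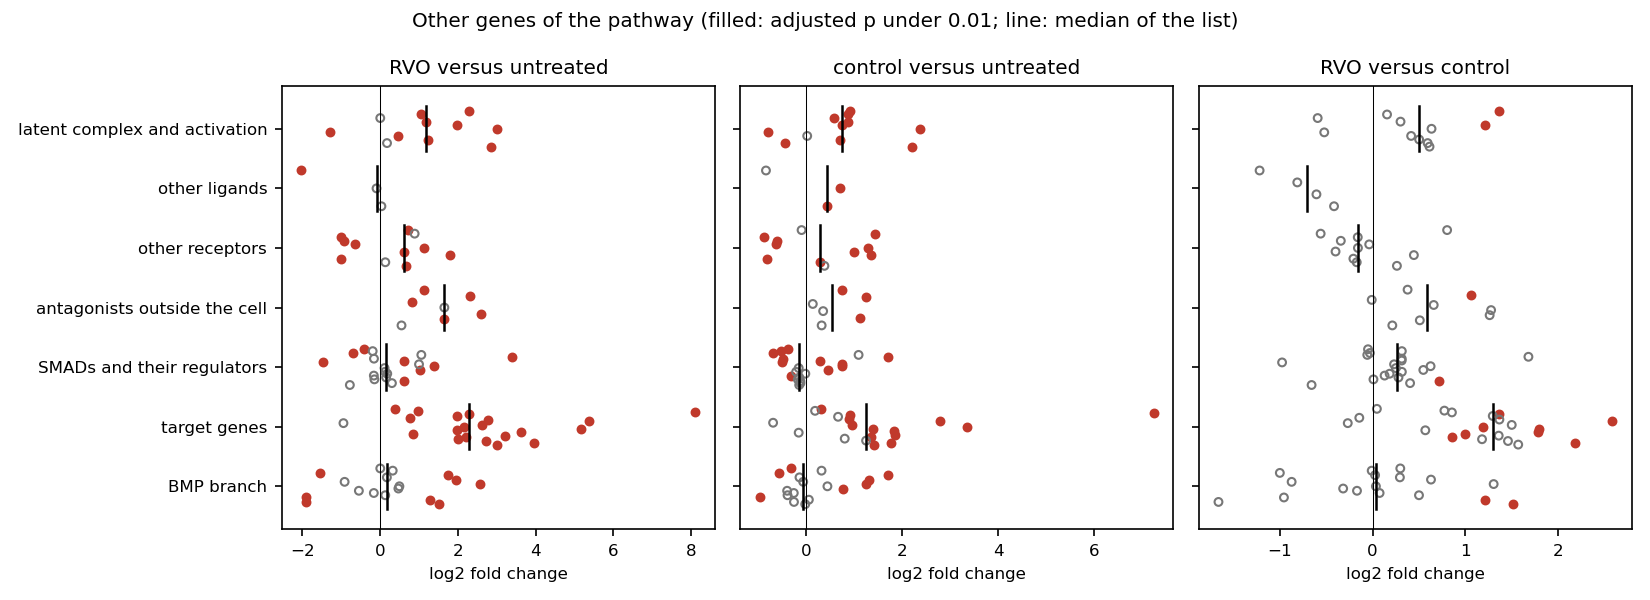
Log2 fold change (x axes) of the other pathway genes in 7 lists (y axis) for each comparison; red points were called at an adjusted p under 0.01, open points were not, and lines give the list medians. Target genes have a median of 2.29 in RVO and 1.25 in control against untreated eyes, whereas SMADs and their regulators lie around 0.

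Most tested markers of monocytes and macrophages, neutrophils, platelets and fibroblasts were higher in RVO than in untreated eyes, as were Tgfb1 and Tgfbi. Among all tested genes, 27.4% were called higher in this comparison. The 8 monocyte and macrophage markers summed to 15.5 to 18.8 CPM in untreated, 51.8 to 70.8 in control and 118 to 146 in RVO eyes, with 7 of 8 higher in RVO and Ly6c2 at 0 in untreated eyes. The 8 neutrophil markers summed to 0.547 to 1.21, 8.41 to 24.9 and 46.9 to 105 CPM, with Cxcr2, Mmp8 and Retnlg at 0 in untreated eyes. Of these markers, 5 were tested and 5 were higher in RVO. They passed the filter for low counts through the RVO pools, so the direction of these calls was fixed by the filter. The 8 platelet markers summed to 4.45 to 4.86, 9.67 to 12.2 and 16.1 to 23.0 CPM, with 3 of 4 tested higher in RVO and Pf4, Gp6 and Tubb1 at 0 in untreated and Gp6 at 0 in control eyes. Pf4 and Ly6c2, at 0 in untreated eyes, likewise could only be called higher there. The 8 fibroblast markers, of which Col1a1, Col1a2, Col3a1 and Dcn are also in the pathway lists, summed to 48.1 to 62.9, 53.3 to 86.6 and 128 to 169 CPM, with 6 of 8 higher in RVO and none at 0. Pericyte and smooth muscle markers summed to 96.8 to 112, 108 to 126 and 67.0 to 142 CPM, pigment epithelium markers to 468 to 515, 414 to 493 and 328 to 617 CPM and Mueller cell markers to 5136 to 5377, 3325 to 3967 and 1930 to 2920 CPM, with none at 0. Lens markers were 1.14 to 3.36 CPM in untreated eyes, with Mip and Lim2 at 0. The part of these cells in the values of the 10 genes was not tested.

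**Figure D5:**
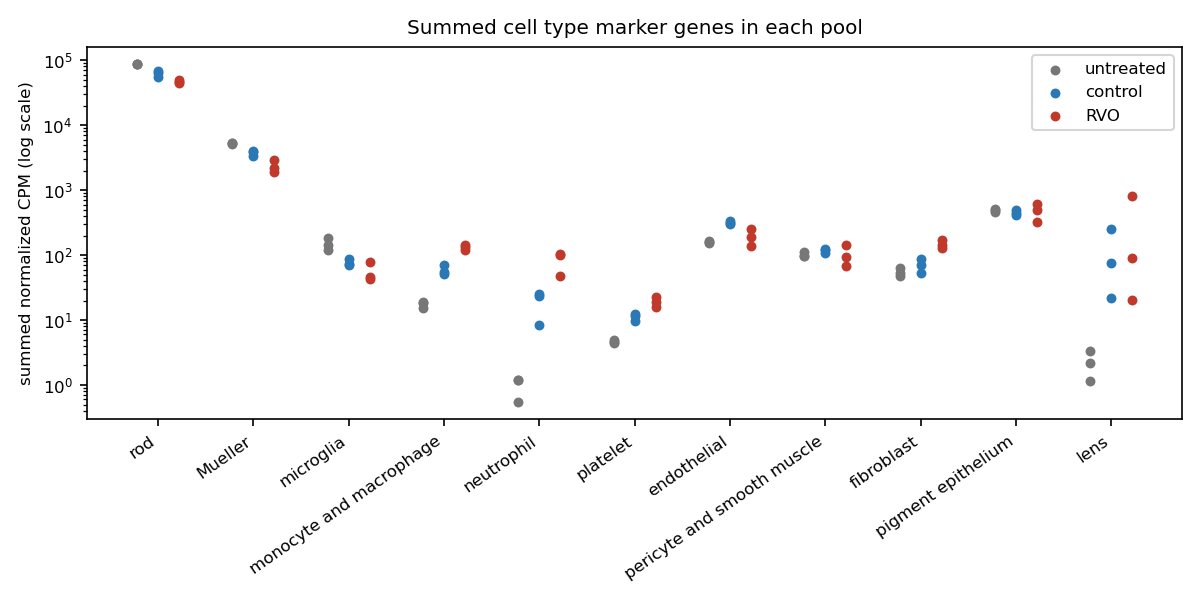
Summed normalized CPM (y axis, log scale) of 8 marker genes for each of 11 cell types (x axis) in the untreated, control and RVO pools (points). Monocyte and macrophage markers are at 15.5 to 18.8, 51.8 to 70.8 and 118 to 146 CPM in these groups, and microglia markers are highest in untreated pools.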

How the data were processed

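The authors mapped the reads of 9 pools of mouse retinas with STAR 2.5.2b (mouse genome, Gencode_vM11), counted them per gene with featureCounts (Subread 1.5.1) and deposited raw counts without normalization. Libraries were stranded, but the use of strand and the treatment of reads in several genes are not given in the sources used here. Opposite-strand genes overlapping exons of Tgfb2, Tgfb3 and Ltbp2 had at most 12 counts per sample, where listed. Samples were grouped by title, and 0 columns were left out. Positions and lengths are from GENCODE vM21 (GRCm38), in which 46372 of 48679 names, 92 of them spike-ins without counts, matched 1 gene.

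Each pair of groups was fitted with edgeR 4.0.16 in R 4.3.3 (filterByExpr, TMM, quasi-likelihood test, Benjamini-Hochberg adjustment). Replicates were separate pools, so p-values measure the spread between pools. They differed by more than sampling noise (chi-square per degree of freedom 3.34 to 59.5). Alternatives were other normalizations and filters, 1 fit of all samples, DESeq2 1.42.0, a replicate block, another threshold and leaving out each sample. The procedure was tested on simulated data. Members, lists and tests were chosen with earlier results of these data known. Genes named are the 10 members, per list and comparison the 3 called genes with the largest fold change among those with groups that did not overlap and at least 1 CPM, and the 2 genes most like each member; others are said to be named after their values were seen. A gene that this rule names is not reported here. Ligand shares were compared by exact permutation tests.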

Additional observations from a re-analysis of the deposited data

How the results depend on the processing

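Of the 10 genes, 6 were called higher in RVO against untreated eyes under each alternative run, and those called lower, 1 in the main analysis, numbered 0 when scaled by library size only, 2 with a fit of all 9 samples, with DESeq2 and at an adjusted p under 0.05, and 0 to 2 with a sample left out. Between control and untreated eyes, the 3 genes called higher were 6 without the filter for low counts and 5 at an adjusted p under 0.05. Between RVO and control eyes, the 3 genes called higher were 1 with DESeq2's size factors in edgeR and 1 with upper quartile factors, 5 without the filter, with a fit of all 9 samples and with DESeq2, and 6 at an adjusted p under 0.05. With a sample left out they were 0 to 6, and those lower 0 to 1. The 13 pathway genes called higher there were 31 without the filter, 36 with a fit of all 9 samples, 37 with DESeq2, 44 at an adjusted p under 0.05 and 0 to 38 with a sample left out, and the 0 called lower were 3, 4, 4, 8 and 0 to 15. Log2 fold changes with sign changes were those of genes that were not called. Scaled by library size only, Tgfb2 had 0.12 and Tgfb3 0.0468 between control and untreated eyes. With a sample left out, Tgfb2 had -0.046 to 0.17 between RVO and untreated and -0.15 to 0.029 between control and untreated eyes, Ltbp2 -0.0031 to 0.62 between control and untreated eyes and Tgfbr1 -0.0388 to 0.0744 between RVO and control eyes. With the length of the longest transcript, the difference in ligand share was 9.34 percentage points for Tgfb1 and -1.24 for Tgfb2 between RVO and untreated, 4.46 and -2.53 between control and untreated, and 4.89 for Tgfb1 between RVO and control eyes, because Tgfb1 then has a shorter length. The cause of the other changes was not tested. Depth limits Inhba, which had 6 to 11 counts per untreated sample, and the filter of 1 CPM in 3 samples left it untested between control and untreated eyes.

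RVO and control pools share replicate numbers, but the labels do not say that pools with the same number hold the same mice. Deviations of pools with the same number correlated with r = -0.187, -0.19 and 0.106 across 14974 genes, so the numbers were not taken as pairs. With different numbers r ran from -0.293 (RVO 3 and control 1) to 0.289 (RVO 2 and control 1). These values concern the numbering only. Both groups came from the same mice, and the p-values without pairs do not take this into account. With the replicate block, Inhba was called between control and untreated eyes (edgeR, Benjamini-Hochberg adjusted p = 0.00918), and 2 of the 10 genes were lower in RVO than in untreated eyes. For RVO against control eyes, 0 of the 10 genes, 0 pathway genes and 0 of all 16874 genes were called higher or lower, with 7227 of all genes at an unadjusted p under 0.05 in edgeR and 7257 in DESeq2 without the block.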

Other observations

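In the BMP branch, which shares SMAD4 and some receptors with TGF-beta, 5 of 17 tested genes were higher and 3 lower in RVO and 4 higher and 3 lower in control than in untreated eyes (edgeR, Benjamini-Hochberg adjusted p under 0.01), with list medians of 0.17 and -0.05 on the log2 scale. Among all tested genes, 27.4% were higher and 24.6% lower in RVO and 27.2% and 25.2% in control eyes, so these counts were near the shares of all genes. The ligand genes Bmp2 and Bmp4 were called between RVO and control eyes. Bmp2 had 2.97 ± 1.09 CPM in untreated, 2.91 ± 0.49 in control and 8.27 ± 1.34 in RVO eyes (SD, n = 3) with 2.85-fold more in RVO than control eyes (edgeR, Benjamini-Hochberg adjusted p = 0.00798). Bmp4 had 5.37 ± 0.38, 5.53 ± 0.35 and 12.8 ± 1.41 CPM with 2.31-fold more (edgeR, Benjamini-Hochberg adjusted p = 0.00669). For control against untreated eyes their log2 ratios were -0.01 (standard error 0.26) and 0.06 (standard error 0.14), and neither was called. The calls between RVO and control eyes depend on the pools, and edgeR called 0 pathway genes without RVO replicate 3 or without any of the control replicates, when at most 1 gene of the whole table was called. Without RVO replicate 1, it called 0 of 17 tested genes of the BMP branch, beside 29 of all 17149 genes.

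Id1 and Id3, targets of BMP signalling, rose in control eyes by 2.48-fold and 3.27-fold and in RVO eyes by 3.86-fold and 3.37-fold. Id2 and Id4 of the same family, named after their values were seen, did not rise. Id4 fell by 1.55 on the log2 scale in RVO and by 0.56 in control eyes, and Id2 was called in neither. Grem1, an antagonist of BMPs, rose 5.96-fold in RVO and 2.39-fold in control eyes, from 2.08 ± 0.12 CPM in untreated eyes, and varied widely between RVO pools (12.3 ± 7.64 CPM). Bmp5 fell by 1.90 on the log2 scale in RVO and by 0.95 in control eyes, with 4.63 ± 0.99 CPM in untreated, 2.35 ± 0.40 in control and 1.21 ± 0.47 in RVO eyes.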
